A study of Mus musculus with 2 samples.

Results

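The Id family is made up of 4 genes, Id1, Id2, Id3 and Id4, out of 22367 protein-coding genes in the mouse annotation used here. Their p300 peaks were taken as every peak with its midpoint inside the gene or within 1 Mb of its transcription start site (TSS), which gave 53 of the 6629 peaks in the deposited list. The 4 genes lie on different chromosomes, so no peak was counted for more than 1 of them. The members were named by family and not by their peaks, though with earlier results of these data known.

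The study asked where the co-activator p300, a protein found at active enhancers, sits on the chromatin of the dorsal cerebral wall of the mouse at embryonic day 14.5. The tissue came from Swiss Webster embryos, for which the study names no transgene or mutation, and was freed of its medial structures at dissection. It was profiled by chromatin immunoprecipitation and sequencing with 1 p300 library against 1 input library, so there was no replicate, and the p-values below compare the peak list with even placement over the genome, not sample with sample. The list holds coordinates and no height, enrichment or read count, so the depth behind a peak is unknown, and the study filtered it against a set of known genes to take out peaks near a TSS or at an exon. By the annotation used here, 143 of the 6629 peaks still overlap an exon. None of the peaks lay nearer than 3.6 kb to an Id TSS, so the list says nothing of the Id promoters themselves, and the level of Id mRNA was not measured.

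Id proteins carry a helix-loop-helix domain without the basic region that contacts DNA. They pair with E proteins, the common partners of proneural factors such as Neurog2, and keep these from binding the E-box, a short DNA site with the letters CANNTG. Id genes are classic targets of bone morphogenetic protein (BMP) signalling, and in the embryonic forebrain they are known for holding progenitors in an undifferentiated state.

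The peak nearest to each Id TSS is shown first, since these are the sites through which the 4 genes differed most in distance. Each line gives the middle 300 bases of the peak on the plus strand of the mm9 reference assembly, which is not the sequence of the Swiss Webster embryos, and capitals mark every E-box. The Id1 stretch is chr2:152549713-152550012, 12.1 kb upstream of the TSS, the Id2 stretch is chr12:25777184-25777483, 3.6 kb downstream, the Id3 stretch is chr4:135779919-135780218, 80.7 kb downstream in an intron of Asap3, and the Id4 stretch is chr13:48254940-48255239, 101.7 kb upstream in an intron of the noncoding gene A330033J07Rik.
Id1 nearest peak: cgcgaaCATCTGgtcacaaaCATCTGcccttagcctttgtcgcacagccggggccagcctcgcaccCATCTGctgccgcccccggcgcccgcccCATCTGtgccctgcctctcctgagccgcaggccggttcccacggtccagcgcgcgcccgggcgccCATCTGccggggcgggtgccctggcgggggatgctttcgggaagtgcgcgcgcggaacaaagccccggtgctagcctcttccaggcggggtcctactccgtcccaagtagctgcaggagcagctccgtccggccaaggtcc
Id2 nearest peak: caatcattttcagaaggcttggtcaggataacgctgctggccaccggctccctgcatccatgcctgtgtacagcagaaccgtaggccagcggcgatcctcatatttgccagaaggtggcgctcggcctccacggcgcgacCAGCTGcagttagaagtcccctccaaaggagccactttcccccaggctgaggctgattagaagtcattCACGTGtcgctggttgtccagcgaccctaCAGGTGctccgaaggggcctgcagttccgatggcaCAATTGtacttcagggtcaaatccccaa
Id3 nearest peak: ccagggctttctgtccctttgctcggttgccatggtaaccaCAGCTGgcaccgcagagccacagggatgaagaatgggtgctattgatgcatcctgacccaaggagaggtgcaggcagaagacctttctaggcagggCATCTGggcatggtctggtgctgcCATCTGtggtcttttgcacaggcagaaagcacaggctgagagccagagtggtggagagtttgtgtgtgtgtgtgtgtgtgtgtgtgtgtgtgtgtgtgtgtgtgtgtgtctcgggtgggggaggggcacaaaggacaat
Id4 nearest peak: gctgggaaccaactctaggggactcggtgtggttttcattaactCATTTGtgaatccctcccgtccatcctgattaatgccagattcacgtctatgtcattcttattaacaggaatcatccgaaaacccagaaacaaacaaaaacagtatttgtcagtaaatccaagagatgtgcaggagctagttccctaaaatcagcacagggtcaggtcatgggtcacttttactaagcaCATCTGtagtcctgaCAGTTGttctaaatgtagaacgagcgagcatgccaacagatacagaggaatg

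The Id1 stretch held 5 E-boxes, and all of them had the same letters, CATCTG. Counting both strands, 15 of the 6629 peaks (0.226%) held as many CATCTG sites in their middle 500 bp. The Id2 stretch held 4 E-boxes with 4 different cores, among them CACGTG. The Id3 stretch held 1 CAGCTG and 2 CATCTG sites, and the Id4 stretch held 3 E-boxes of different letters. Base composition differed as well, with a GC content of 71.0% at Id1, 57.7% at Id2, 56.0% at Id3 and 43.3% at Id4.

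Id4 (ENSMUSG00000021379, chr13:48356796-48359405, plus strand), which is needed for the normal timing of neuron production in the telencephalon, had 24 peaks within 1 Mb. Id1 (ENSMUSG00000042745, chr2:152561987-152563146, plus strand) had 13, Id3 (ENSMUSG00000007872, chr4:135699412-135701670, plus strand) had 9 and Id2 (ENSMUSG00000020644, chr12:25778666-25780957, minus strand) had 7. Even placement gave 5.18 peaks for each window, so the count was 4.63-fold higher at Id4, 2.51-fold higher at Id1, 1.74-fold higher at Id3 and 1.35-fold higher at Id2. The median protein-coding gene had 4 peaks and the 90th percentile was 11.

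In a one-sided exact binomial test with Benjamini-Hochberg adjustment over all protein-coding genes, Id4 (adjusted p = 2.91e-07) and Id1 (adjusted p = 0.0396) passed the threshold of 0.05, while Id3 (adjusted p = 0.431) and Id2 (adjusted p = 0.908) did not. The same test called 6.87% of all protein-coding genes. At least as many peaks as at Id4 were counted for 0.541% of protein-coding genes, against 6.84% for Id1, 18.7% for Id3 and 29.1% for Id2. The exact 95% binomial interval, which covers counting error only and treats peaks as independent, was 15.4 to 35.7 for Id4, 6.92 to 22.2 for Id1, 4.12 to 17.1 for Id3 and 2.82 to 14.4 for Id2. Peaks came in groups, with 50.1% of the whole list lying under 50 kb from another peak, and the test does not allow for this grouping. The Id1 call ended when narrower peaks than the median were left out (6 peaks, adjusted p = 0.383 by the same exact test).

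**Figure D1:**
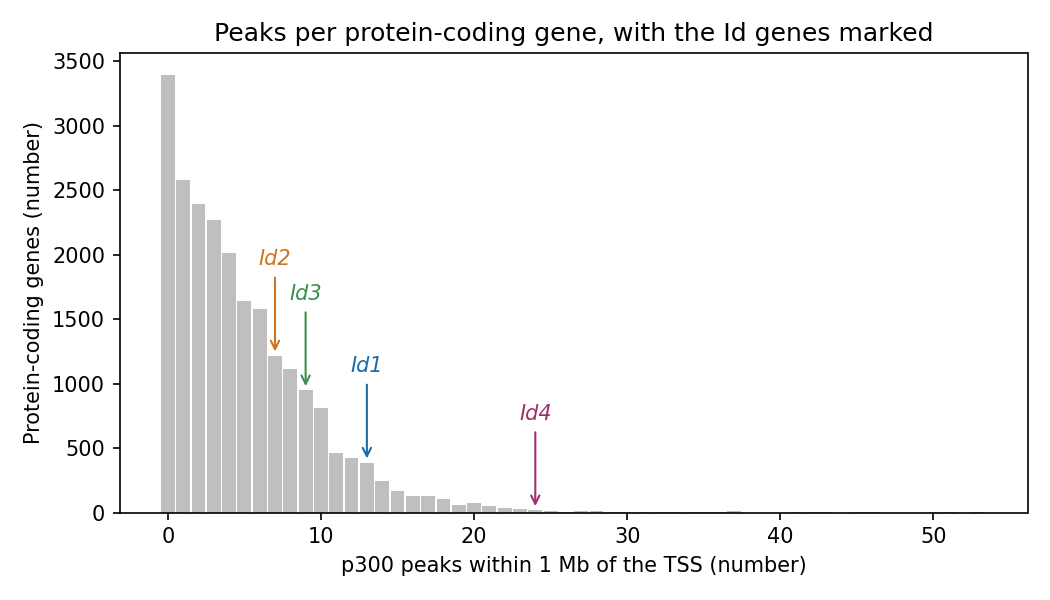
Number of protein-coding genes (vertical axis) by the number of p300 peaks within 1 Mb of their TSS (horizontal axis), with arrows at the 4 Id genes. Id2 with 7 and Id3 with 9 peaks stand in the body of the distribution, Id1 with 13 above its 90th percentile of 11, and Id4 with 24 above its 99th percentile of 21.

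Compared with each other, Id4 had more peaks than Id2 and Id3, and the remaining pairs did not separate. The ratio of the Id2 to the Id4 count was 0.292 (95% interval 0.106 to 0.698, adjusted p = 0.0200, two-sided exact binomial test over 6 pairs). For Id3 against Id4 it was 0.375 (0.153 to 0.836, adjusted p = 0.0406, same exact test). Id1 had 0.542 times the peaks of Id4, with an interval of 0.253 to 1.11 that includes equal counts (adjusted p = 0.198, exact test). The intervals for Id1 against Id2 (0.689 to 5.50), Id1 against Id3 (0.571 to 3.83) and Id2 against Id3 (0.246 to 2.35) also include equal counts. Both calls were lost when neighbours closer than 5 kb were merged, which left 6 peaks at Id2, 8 at Id3 and 19 at Id4 (adjusted p = 0.0878 for Id2 and 0.157 for Id3 against Id4 in the same exact test), and with wide peaks only (adjusted p = 0.0927 for each, exact test).

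By distance the genes fell in another order. Id2 had a peak at 3.6 kb, starting 885 bp past the end of the gene, and 0.317% of protein-coding genes had a peak as near as that. The study had taken out peaks close to a TSS, which limits how many genes can have one this near. Id1 followed at 12.1 kb (3.12%), Id3 at 80.7 kb (20%), and Id4, the gene with the most peaks, at 101.7 kb (24.5%). Within 50 kb there were 2 peaks at Id1, 2 at Id2 and none at Id3 or Id4. Within 100 kb the counts were 3, 3, 1 and 0 in the order Id1 to Id4, and within 250 kb they were 3, 3, 1 and 8. Among the 316 protein-coding genes with at least 20 peaks, a group looked at after the Id4 value was seen, the median distance to the nearest peak was 64.3 kb, and 35.8% had their nearest peak as far off as Id4.

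**Figure D2:**
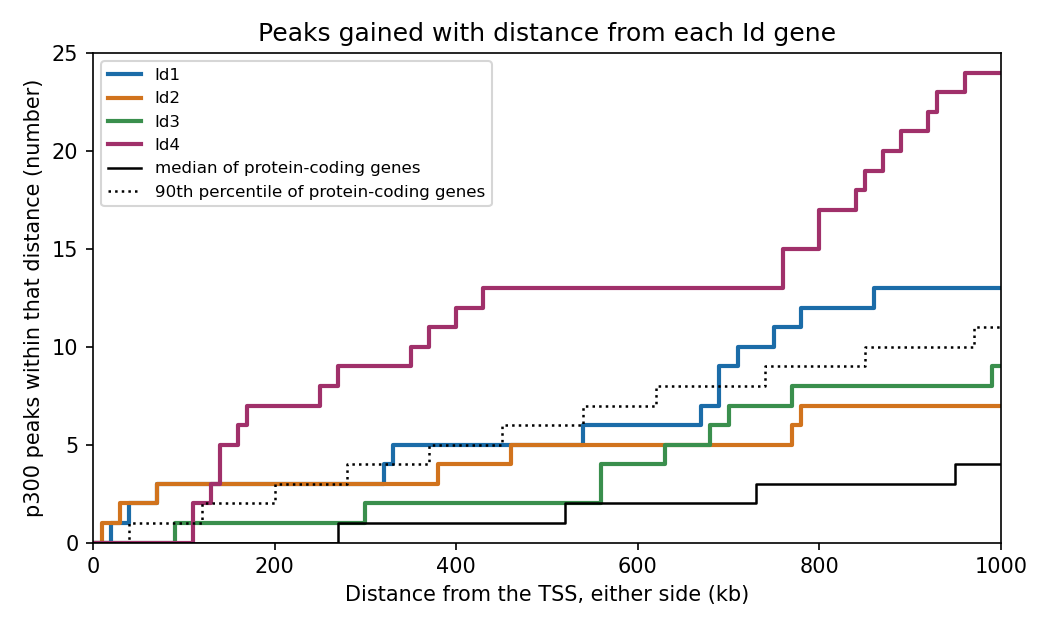
Number of p300 peaks found within a given distance of the TSS on either side (horizontal axis, kb), for each Id gene, with the median and 90th percentile of protein-coding genes as black lines. Id2 and Id1 gain 3 peaks each within 100 kb and no more until past 300 kb, Id3 stays at 1 peak to 250 kb, and Id4 goes from 0 at 100 kb to 8 at 250 kb and 24 at 1000 kb.

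The peaks of Id4 stood mainly on its upstream side, 19 of 24 (79.2%), and 23 of 24 lay under 50 kb from another peak. The nearest upstream were a group of 6 over 66.8 kb that started 101.7 kb from the TSS, inside A330033J07Rik. A pair followed at 247.8 and 262.4 kb, inside 4931429P17Rik, then a group of 4 at 344.8 to 423.9 kb, and then a group of 7 over 120.0 kb at 831.4 to 950.5 kb. Downstream there was 1 peak at 122.8 kb and a group of 4 at 754.7 to 793.9 kb, of which 2 were in introns of Wnk2, a kinase gene. The interval around the TSS without any peak measured 222.9 kb. Of the 316 genes with at least 20 peaks, 39.2% were as one-sided as Id4.

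Id1 also had most of its peaks upstream, 9 of 13, but 5 of them formed a group of 106.0 kb at 667.0 to 772.0 kb, close to the TSSs of Fam110a, 2310046K01Rik and Scrt2, a transcriptional repressor of neurons. The other 4 upstream peaks were at 12.1, 39.3, 325.1 and 538.8 kb. The peak at 39.3 kb had its midpoint inside H13, overlapped an annotated exon and lay 0.3 kb from the TSS of Gm17559. A peak at 68.3 kb downstream lay in an intron of Bcl2l1, which encodes a survival protein.

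Id3 had the opposite layout, with 8 of 9 peaks downstream. Of these, 4 lay inside Ephb2, an ephrin receptor gene of axon guidance, at 555.4 to 673.6 kb. The interval without a peak around its TSS was the longest of the family, 372.2 kb, against 79.6 kb at Id1 and 31.2 kb at Id2.

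Id2 was flanked by peaks on both sides, 4 upstream and 3 downstream. The 3 nearest were at 3.6 kb downstream, 28.6 kb upstream and 61.9 kb downstream, the last in an intron of Kidins220, a scaffold of neurotrophin receptors. Upstream of Id2 there was then 1 peak at 379.4 kb and a pair at 769.1 and 775.2 kb, in a stretch with no other protein-coding TSS between these peaks and Id2.

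**Figure D3:**
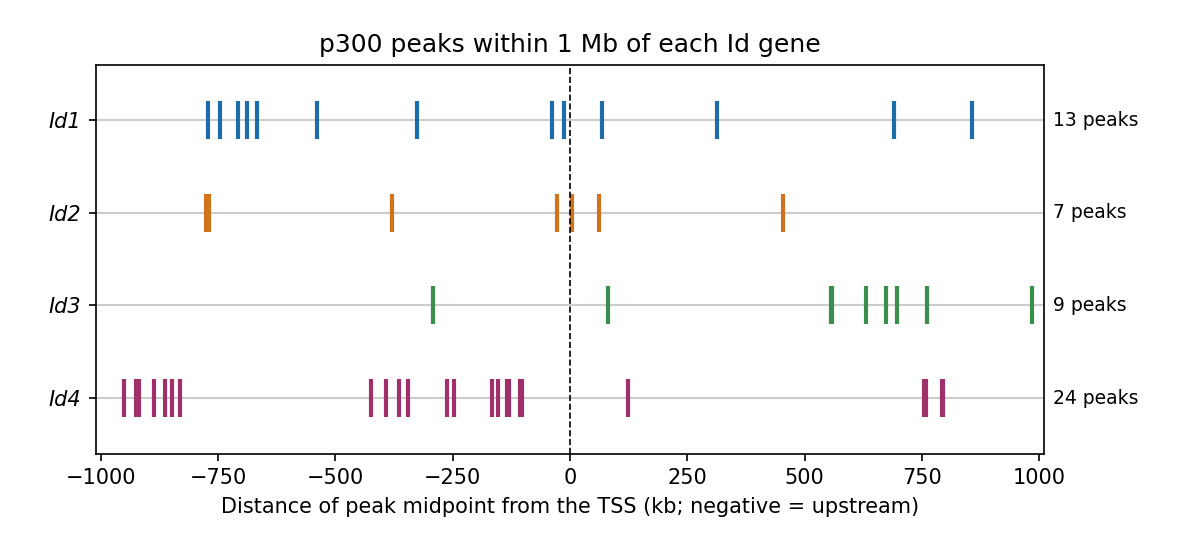
Position of the 53 peaks relative to the TSS of each Id gene (horizontal axis, kb, negative values upstream in the direction of transcription). Each tick is the midpoint of 1 peak. Id4 shows grouped ticks far upstream and none within 100 kb, Id3 shows ticks mainly downstream, and Id2 has a tick beside the TSS.

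Distance to an Id gene is not the same as being its neighbour. The Id TSS was the nearest protein-coding TSS for 3 of 7 peaks at Id2, 2 of 24 at Id4, 1 of 13 at Id1 and none of 9 at Id3. At Id3 the nearest TSS was that of Ephb2 for 3 peaks, 4930549C01Rik for 2, and Asap3, C1qa, Srsf10 and Zbtb40 for 1 each. At Id4 it was that of 4931429P17Rik for 10 peaks, Rnf144b, a ubiquitin ligase gene, for 7, and Fam120a for 4. The surroundings differed in gene density, with 53 protein-coding TSSs in the window of Id1 and 38 in that of Id3, against 12 at Id4 and 11 at Id2.

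The second count used the regulatory domain, which runs from a gene to the nearest protein-coding neighbours and at most 1 Mb. Id4 had 7 peaks in a domain of 482.3 kb where 1.25 were expected (5.60-fold, adjusted p = 0.0321, one-sided exact binomial test over all protein-coding genes), and Id4 was the member of the family that passed, in a test that called 1.13% of genes. Id2 had 6 peaks in 1120 kb against 2.90 expected (adjusted p = 1.00, exact test). Id1 had 2 peaks in 61.02 kb against 0.158 expected (adjusted p = 0.445, exact test), and Id3 had 0 peaks in 109.0 kb against 0.282 expected, as 78.7% of protein-coding genes had none. The Id4 call was lost when peaks less than 5 kb apart were joined (5 peaks, adjusted p = 0.344, exact test).

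The extent of the Id4 domain depended on 4931429P17Rik, a gene known by a clone name. In a comparison added after the data were seen, which left out clone and model names and kept 18669 genes, the Id4 domain grew to 1245 kb with 20 peaks against 3.22 expected (6.20-fold, adjusted p = 2.37e-07, same exact test, which then called 1.27% of genes), and Id4 became the nearest gene for 12 of its 24 peaks. The counts of Id1, Id2 and Id3 were the same as before (2, 6 and 0 peaks).

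A DNA element named elt6, which the study cloned and placed beside Id4, falls in this landscape. In transgenic embryos of the study it drove reporter expression in the developing neocortex, partly outside the zones where Id4 is mainly expressed. The paper proposes that elt6 may regulate another nearby gene, or that flanking sequence or epigenetic state missing from the construct may alter its pattern. The primers of elt6 matched the mm9 genome at a single place, chr13:47508498-47509923 (1426 bp), which covers 79.7% of a peak of 1790 bp. That peak belongs to the far upstream group of 7, 847.6 kb from Id4, and the nearest protein-coding TSS is that of Rnf144b. Its middle 300 bases, chr13:47509069-47509368 on the plus strand of mm9, are shown because this is the member peak that was cloned, again with E-boxes in capitals.
Id4 peak under elt6: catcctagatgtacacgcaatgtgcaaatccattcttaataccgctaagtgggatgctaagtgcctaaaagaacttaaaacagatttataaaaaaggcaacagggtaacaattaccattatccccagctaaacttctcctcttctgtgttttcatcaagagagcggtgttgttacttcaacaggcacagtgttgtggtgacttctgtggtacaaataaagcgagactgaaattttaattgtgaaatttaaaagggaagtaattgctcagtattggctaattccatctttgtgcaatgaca
No E-box lay in these 300 bases, although 3 lay in the middle 500 bp. The GC content of the stretch was 37.7%.

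Peaks at Id1 and Id3 were richer in GC than most of the list, while those at Id4 were close to it. The median GC content was 44.0% at Id4 (range 38.8 to 50.3), 48.7% at Id2 (38.2 to 53.9), 53.8% at Id3 (49.9 to 57.9) and 55.2% at Id1 (49.8 to 63.9), beside 45.2% over all peaks with quartiles of 40.6 and 50. Apart from 1 Id1 peak at 49.8% and 1 Id3 peak at 49.9%, the Id1 and Id3 peaks lay above the upper quartile. Width did not order the genes in this way, with medians of 1007 bp at Id1, 1174 at Id2, 968 at Id3 and 1058 at Id4 beside 1017 over all peaks. The widest peak of the family, 2438 bp, was 130.2 kb upstream of Id4. Peaks inside protein-coding genes made up 14 of 53 (26.4%, exact 95% interval 15.3 to 40.3, counting error only), beside 42.7% of all peaks. The genes differed in this, with 5 of 9 at Id3 (55.6%), 4 of 13 at Id1 (30.8%), 4 of 24 at Id4 (16.7%) and 1 of 7 at Id2 (14.3%). These are descriptions and were not tested.

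**Figure D4:**
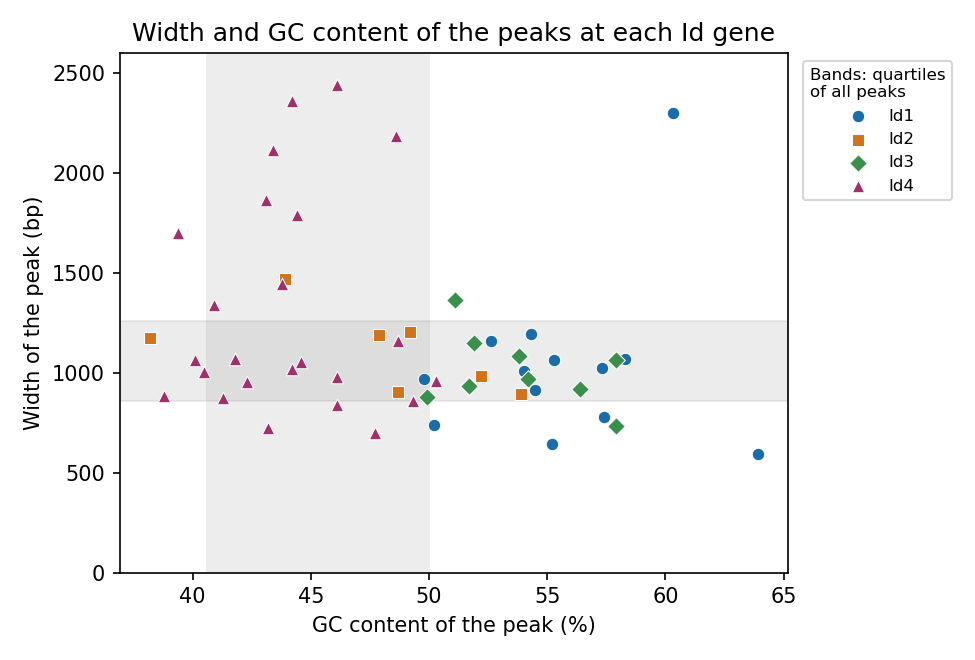
Width (vertical axis, bp) against GC content (horizontal axis, percent) of the 53 peaks, with a symbol for each Id gene. Grey bands run between the quartiles of all 6629 peaks, the vertical band for GC content (40.6 to 50%) and the horizontal band for width (860.0 to 1260 bp). Id4 peaks fall mostly in or left of the vertical band and include 7 of the 8 widest peaks, and Id1 and Id3 peaks fall mostly right of it.

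The widest peak at each gene is shown next by its middle 150 bases on the plus strand of mm9, to let the difference in base composition be seen. The Id1 stretch is chr2:151874365-151874514, 687.5 kb upstream, the Id2 stretch chr12:26556052-26556201, 775.2 kb upstream, the Id3 stretch chr4:135406633-135406782, 292.7 kb upstream, and the Id4 stretch chr13:48226568-48226717, 130.2 kb upstream. Capitals mark E-boxes.
Id1 widest peak: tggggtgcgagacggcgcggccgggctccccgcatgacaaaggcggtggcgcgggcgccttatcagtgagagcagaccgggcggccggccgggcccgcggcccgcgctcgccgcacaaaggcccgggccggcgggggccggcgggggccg
Id2 widest peak: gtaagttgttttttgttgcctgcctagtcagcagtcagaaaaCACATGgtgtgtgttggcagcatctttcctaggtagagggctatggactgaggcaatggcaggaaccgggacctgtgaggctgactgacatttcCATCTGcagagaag
Id3 widest peak: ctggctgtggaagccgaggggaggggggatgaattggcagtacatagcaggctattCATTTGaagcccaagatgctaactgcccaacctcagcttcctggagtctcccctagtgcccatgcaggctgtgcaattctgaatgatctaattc
Id4 widest peak: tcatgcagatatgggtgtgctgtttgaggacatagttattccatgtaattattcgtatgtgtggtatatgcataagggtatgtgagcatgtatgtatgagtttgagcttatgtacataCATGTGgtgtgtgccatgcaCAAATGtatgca
The Id1 stretch had no E-box and a GC content of 82.0%. The Id4 stretch had 2 E-boxes and a GC content of 38.7%. The Id2 stretch (50%) held 2 E-boxes, and the Id3 stretch (52.7%) held 1.

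E-boxes, the sites that Id proteins keep E protein pairs away from, were present in the middle 500 bp of nearly every peak. They were found in 51 of 53 Id peaks (96.2%) and in 96.8% of all peaks on either strand, with a median of 4 sites at Id1, Id2 and Id4, 3 at Id3 and 4 over all peaks. The density was 9.06 sites per kb at the Id genes and 7.53 over all peaks, but 2 peaks of Id4 in introns of Wnk2, 792.6 and 793.9 kb downstream, held 21 and 18 sites, of which 18 and 13 were CACCTG. Without them the density was 7.64 sites per kb at Id4 and 7.88 over the other 51 Id peaks. The former peak is shown by its middle 150 bases, chr13:49149324-49149473 on the plus strand of mm9, because it held the most E-boxes of the 53 peaks. It was picked after its count was seen.
Id4 peak in Wnk2: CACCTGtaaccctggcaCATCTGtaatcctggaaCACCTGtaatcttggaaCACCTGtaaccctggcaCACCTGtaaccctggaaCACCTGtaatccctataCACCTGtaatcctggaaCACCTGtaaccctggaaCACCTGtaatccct
The 9 E-boxes of this stretch, 8 CACCTG and 1 CATCTG, start every 17 bases, in a tandem repeat. In all, 14 of the 6629 peaks (0.211%) held as many E-boxes in their middle 500 bp. Whether reads mapped well to the repeat was not tested.

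Among E-box cores, CAGCTG was found in 7 of 13 peaks at Id1, 5 of 7 at Id2, 6 of 9 at Id3 and 6 of 24 at Id4 (25%, exact 95% interval 9.77 to 46.7), beside 39.7% of all peaks. CATCTG, searched with its reverse complement CAGATG, was found in 9 of 13, 3 of 7, 8 of 9 and 11 of 24 peaks in the same order, beside 57.4% of all peaks. Both are E-boxes and are counted among those above. Intervals cover counting error only.

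Motifs of the BMP pathway were looked for because Id genes are its targets. The GC box GGCGCC, a site of BMP Smads, was found in 5 of 13 peaks at Id1 (38.5%, exact 95% interval 13.9 to 68.4) and in 0 of 40 at the other genes (0 of 7 at Id2, 0 of 9 at Id3 and 0 of 24 at Id4, where the interval reaches 14.2%). It was found in 4.96% of all peaks, and in 10.8% of the 1709 peaks whose GC content lay in the range of the Id1 peaks. That set was taken by range alone and was not matched to the Id1 median GC content of 55.2%. The peak nearest to Id1 held 2 of these boxes. The other Id1 peaks with a box lay 538.8 to 706.7 kb from its TSS, outside its regulatory domain and nearer to other protein-coding TSSs. These shares are for the middle 500 bp, and in whole peaks 1 Id4 peak also held a box. GTCTG, the short Smad box, was found in 40 of 53 Id peaks (75.5%) and 72.5% of all peaks, and in 9 of 9 peaks at Id3.

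Other short sites of neural factors were present at shares near or below those of the whole list, with some exceptions. The homeodomain core TAATTA was in 18.9% of Id peaks (exact interval 9.44 to 32.0) and 31.3% of all peaks. The Notch effector site TGGGAA of Rbpj was in 34.0% and 41.3%, and the POU octamer ATGCAAAT in 2 of 53, both at Id4, and 7.60%. The Sox site ACAAAG was in 54.7% of Id peaks (40.4 to 68.4) and 40.8% of all peaks, and the Nfi site TTGGCA was in 49.1% and 42.3%, with 6 of 7 peaks at Id2. These shares are for the middle 500 bp. In whole peaks the POU octamer was in 17.0% of Id peaks and 12.9% of all peaks. The Rbpj site was then in 67.9% and 66.6%, the Sox site in 71.7% and 66.3%, and TAATTA in 26.4% and 46.7%. Shares were not tested, and a match of letters is not a bound site.

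The partners and opponents of the Id proteins differed in their own peak counts. The 3 E protein genes, which encode the direct partners of Id proteins, had 5 peaks (Tcf3), 6 (Tcf12) and 10 (Tcf4) within 1 Mb, and none passed the test that called 6.87% of genes. Of 11 genes for neural bHLH factors, whose action Id proteins oppose, 5 passed, with a median of 12 peaks. Neurog2, the proneural factor of the dorsal telencephalon, had the most at 19 (adjusted p = 0.000137, exact test as for the Id genes) and Neurod4 the fewest at 1, and Olig1 and Olig2, both called with 15, share a locus. The 6 Hes and Hey repressor genes, which also hold progenitors undifferentiated, had a median of 5 peaks and none passed. The Id genes had a median of 11, between 7 and 24, and 2 of 4 passed.

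The lists of BMP ligands, receptors and Smads had median counts below those of Id1 and Id4. Medians were 4 for 7 ligands (2 at Gdf5 to 12 at Bmp7), 6 for 6 receptors (2 at Bmpr2 to 10 at Acvr1) and 6.5 for 6 Smads (1 at Smad1 to 12 at Smad5), and none of these 19 genes passed the test that called 6.87% of all protein-coding genes. Of 6 genes for antagonists and modulators, Nog, which encodes a secreted BMP antagonist, had the most with 16 peaks (adjusted p = 0.00282, exact test as above) and Bambi the fewest with 1. Nog was the 1 gene of the pathway lists that passed, a share near that over all genes.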

How the data were processed

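The 1 p300 library was sequenced by the authors as short reads from the dorsal cerebral wall, aligned to mm9 with ELAND keeping unique alignments, and turned into peaks against the input with MACS 1.4, a version named in the submitters' processing notes. By their methods, the authors took out peaks at exons, near a TSS or suspected of non-unique mapping. Their deposited list gives chromosome, start, end and a number for each of 6629 peaks. It has no measured value, and the input library was not analysed here.

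Peaks were counted by midpoint with Python 3.11.15, numpy 2.4.6 and scipy 1.17.1, and plotted with matplotlib 3.10.9. Genes were those of GENCODE on mm9, with the TSS of the longest coding transcript. Peak counts were tested by exact binomial tests with the share of 2559 Mb of assembled sequence as the chance, adjusted by Benjamini-Hochberg over 22367 protein-coding genes. The domain ran 5 kb upstream and 1 kb downstream of the TSS and grew by at most 1 Mb on each side until it met the next gene. The code was tested on simulated data. Motifs, 10 in all, were searched on both strands. No protein sequence was used here.

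The members, gene lists and motifs were chosen with earlier results of these data known. Named genes are the Id genes, the genes nearest to or holding their peaks, and for each of 14 lists the members with the most and the fewest peaks, other names having been picked after their values were seen. Alternatives were other windows, joined peaks, wide peaks only, other start sites and other gene sets. Only counting error can be given, since 1 library has no replicate.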

Additional observations from a re-analysis of the deposited data

How the results depend on the processing

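The number of peaks at Id4 stayed above even placement with every window, peak and gene choice that was run, with 24 falling to 8 within 250 kb. Id1 fell below the threshold with 5 peaks within 500 kb, 3 within 250 kb and 6 among wide peaks, and Id4 with 5 peaks in its domain when peaks less than 5 kb apart were joined. The adjusted p for Id2 against Id4 was 0.0878 with joined peaks, 0.0927 with wide peaks and 0.193 within 500 kb, and for Id3 against Id4 it was 0.157 with joined and 0.0927 with wide peaks, all by the exact binomial test. Fewer peaks or a smaller window enter each of these by construction.

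The number of protein-coding genes called within 1 Mb was 1537, against 914 with 500 kb, 468 with 250 kb, 1000 with joined and 816 with wide peaks, and 2744 when 37273 annotated genes were tested. For domains it was 252, against 158 with joined and 153 with wide peaks. In whole peaks in place of their middle 500 bp, the share of Id peaks with an E-box was 100%, beside 99.6% of all peaks. It was 62.3% for CAGCTG (56.3% of all peaks), 67.9% for the Rbpj site (66.6%) and 92.5% for the Smad box (91.0%). For the Sox site it was 71.7% (66.3% of all peaks), and for the POU octamer 17.0% (12.9%). Without clone and model names, chosen after seeing the data, Id4 was the nearest gene for 12 peaks. The other 68 values included whole-peak shares that rose but stayed inside the exact interval of the share in the middle 500 bp. Such were CATCTG (58.5 to 71.7%), the Nfi site (49.1 to 62.3%) and TAATTA (18.9 to 26.4%). Over all whole peaks these shares were 74.8%, 60.7% and 46.7% in the same order. The rest of the 68 kept their side of the threshold or moved little. With 1 library and no read counts, neither the height of a peak nor its spread between samples can be given. No paired analysis was possible because there is 1 p300 library.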

Other observations

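Gene lists that mark cell types of the region and its surroundings were counted in the same windows, as a description of the peak list and not of expression, with a test that called 6.87% of all protein-coding genes, so that 0 or 1 call in a list of 5 or 6 is near that share. Of 12 genes of the dorsal telencephalon, 6 passed the test, with a median of 12.5 peaks and from 7 at Eomes to 19 at Neurog2. This list overlaps that of the neural bHLH factors above. Neurog2, Neurod2 and Neurod6 are in both lists, and their calls are counted in each. Of 6 genes of the subpallium, from 2 peaks at Nkx2-1 to 11 at Dlx2, none passed, and none passed of 6 endothelial genes (1 at Cdh5 to 7 at Pecam1). None passed of 5 blood and microglia genes (1 at Gata1 and Aif1 to 6 at Ptprc), nor of 6 genes of other tissues (3 at Cdx2 to 8 at Ins2). Among 6 genes of the choroid plexus and cortical hem, structures on the medial side, Lmx1a passed with 13 peaks (adjusted p = 0.0396, exact binomial test over all protein-coding genes), and Ttr had the fewest with 3.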
